A study of Homo sapiens with 6 samples.

Results

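The transcripts of the lysosome, of the proton pump that acidifies it (the V-ATPase) and of the transcription factor family TFEB, TFE3 and MITF were followed in SNU449 cells, an established human hepatocellular carcinoma line. Members were taken by name: every gene whose symbol starts with ATP6V or ATP6AP (22 genes), and a list of 37 lysosomal hydrolases, membrane proteins and regulators, of which 36 had a row in the expression table. This gave 58 members among 13117 genes. NEU1 was not analysed here.

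Both groups of libraries came from SNU449 cells that carried FOXO1AAA in pInducer20, a vector that switches on its insert when doxycycline is added; FOXO1AAA is the usual name of a FOXO1 form whose Akt sites are changed to alanine. The Dox group (n = 3 libraries, Dox 1 to Dox 3) received 2 µM doxycycline hydrochloride for 48 h, and the Cont group (n = 3 libraries, Cont 1 to Cont 3), which carried the same construct, received none. The labels give the genotype of both groups as WT, and no cells that received doxycycline without the construct were analysed here, so what the drug did and what the insert did cannot be told apart in these libraries. The labels do not say whether libraries of one group were separate cultures, and p-values then reflect only the spread between these libraries, which may be technical.

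Lysosomes degrade proteins, glycans, lipids and nucleic acids with hydrolases that work best in acid. The V-ATPase supplies that acid: its V1 sector hydrolyses ATP in the cytosol and drives proton transport through the V0 sector in the membrane, and several subunits exist in alternative forms encoded by different genes. TFEB, TFE3 and MITF are related basic helix-loop-helix leucine zipper factors, which bind E-boxes in many lysosomal promoters and are held in the cytosol when the kinase mTORC1 is active. In liver, lysosomes also clear glycogen and lipid, and inherited loss of single hydrolases causes storage disease.

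Values are FPKM (fragments scaled by transcript length and by the mapped reads of the library), which puts levels of different genes on a scale per length. The lengths used and the counting of shared reads are not given, so ranks, sums and shares across genes are approximate. A change is the difference, Dox minus Cont, of mean log2(FPKM + 1). It was tested with limma over the 11526 genes that reached FPKM 1 in 3 or more libraries, and a gene was called at an adjusted p under 0.05. Doxycycline went with a very broad difference between the groups: 80.4% of all genes tested were called, 37.6% higher and 42.8% lower in Dox. FOXO1 itself had 2.87, 3.50 and 2.01 FPKM in Dox libraries, against 0.741, 0.776 and 0.889 FPKM in Cont libraries (log2 change 1.06, adjusted p = 9.84e-05 by limma); whether this level includes the construct cannot be told from the table. Mitochondrially encoded genes took 14.1% ± 0.80 of summed FPKM in Dox and 3.73% ± 0.855 in Cont (SD, n = 3 each), and because FPKM is relative to all mapped reads, a larger share for these genes leaves less for the rest. The median change of all genes was -0.06 in FPKM, 0.06 in TPM and under median-of-ratios scaling, 0.22 in TPM computed after the genes of the mitochondrial genome were removed (mitochondria-free TPM), and -0.05 with quantile normalization. Estimated depth was 28.4 to 47.1 M reads per library.

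The labelled cell type was set against marker lists. ALB, the albumin gene and a defining hepatocyte transcript, was near 0, at 1.19 ± 0.459 FPKM in Dox and 0.321 ± 0.239 FPKM in Cont (SD, n = 3 each). Of 7 mesenchymal markers 6 had a row, with summed levels of 472 to 572 FPKM in Dox and 1150 to 1200 FPKM in Cont. VIM carried most of that sum (291 ± 33.6 FPKM in Dox and 906 ± 7.83 FPKM in Cont). COL3A1 (142 ± 15.6 FPKM in Dox and 5.93 ± 0.919 FPKM in Cont) and FN1 (7.59 ± 0.507 FPKM in Dox and 1.37 ± 0.483 FPKM in Cont) were called higher in Dox (log2 changes 4.37 and 1.88 by limma). VIM (log2 change -1.64 by limma) and all other mesenchymal markers with a row were called lower. Of other cell types, 1 of 6 macrophage and other immune markers had a row (2.25 to 2.38 FPKM in Dox, 1.73 to 2.35 FPKM in Cont), and 2 of 6 osteoclast markers, CTSK and TNFRSF11A, summed to 19.1 to 20.6 FPKM in Dox and 5.0 to 6.84 FPKM in Cont. In bulk libraries, fewer cells of a type and less RNA per cell cannot be told apart.

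Of the 58 members, 56 passed the filter and were tested. Among them 23 were higher in Dox, 13 were lower and 20 were not called. The called share was 64.3%, against 80.4% of all genes. Called changes of at least 1 in size on the log2(FPKM + 1) scale were found for 11 members (19.6%), against 32.9% of all genes tested. Of the 11, ATP6V1C2, ATP6V1A, ARSA, SMPD1, GAA and ATP6V0A2 rose, and GLA, ATP6V0A4, FUCA2, TFE3 and CTSC fell. ATP6AP1L, 5.10-fold higher in mean FPKM at low levels, changed by 0.94 on this scale and is not among them. The groups did not overlap for 38 members (67.9%), against 82.1% of all genes. The median change of the members was 0.13, against -0.06 for all genes, and the median size of a change was 0.29, against 0.67.

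The split of calls and the called share depended on scaling. With TPM (levels rescaled to the same sum in each library) 31 members were higher and 9 lower, with mitochondria-free TPM 38 and 7, under median-of-ratios scaling 35 and 9, and with quantile normalization 33 and 9. Relative to the median of all genes, the median member stood 0.197 higher in FPKM, 0.183 in TPM, 0.187 in mitochondria-free TPM, 0.201 under median-of-ratios scaling and 0.337 with quantile normalization. The called share of members in TPM was 71.4%, against 79.7% of all genes. In mitochondria-free TPM it was 80.4% against 80.2%, under median-of-ratios scaling 78.6% against 80.5%, and with quantile normalization 75% against 79.7%. The gap in FPKM was absent in mitochondria-free TPM. Among all genes called, 46.7% were higher in Dox in FPKM, 52.8% in TPM and 60.2% in mitochondria-free TPM. This was 52.7% under median-of-ratios scaling and 47.3% with quantile normalization. The 11 members with a called change of at least 2-fold kept their direction and their call in all 18 alternative fits. ATP6AP1, ATP6V0B, ATP6V0D1, ATP6V0E2, ATP6V1C1, CTSD, GLB1 and NPC2, 8 members that were not called in FPKM, were called higher under each of these 4 scalings.

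The member with the largest change was ATP6V1C2, an alternative form of subunit C, the V1 subunit that links the catalytic head to the stator and leaves the head when the pump disassembles. The gene lies at chr2:10721100-10785110 on the plus strand (GENCODE 29, GRCh38). It had 66.9, 63.3 and 58.1 FPKM in Dox libraries, against 0.509, 0.762 and 0.847 FPKM in Cont libraries. All 3 Dox libraries stood far above all 3 Cont libraries, and the Cont levels rested on at least an estimated 43.3 reads per library. The mean level was 88.9-fold that of Cont (log2 change 5.23, SE 0.10, adjusted p = 5.71e-10 by limma). Exons of PDIA6, a chaperone gene of the endoplasmic reticulum, overlap ATP6V1C2 on the opposite strand, and strand use in counting is not given. PDIA6 had 66.1 ± 4.29 FPKM in Dox and 119 ± 8.32 FPKM in Cont (SD, n = 3 each), and its part in the ATP6V1C2 value was not tested.

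The common form of the same subunit, ATP6V1C1, had 94.6, 96.7 and 95.2 FPKM in Dox libraries, against 77.1, 79.9 and 95.5 FPKM in Cont libraries (log2 change 0.19, adjusted p = 0.0653 by limma). The third Cont library reached the Dox values, and without it ATP6V1C1 was called higher (0.28, adjusted p = 0.00182). The summed level of subunit C was 158 ± 4.37 FPKM in Dox and 84.9 ± 10.1 FPKM in Cont (SD, n = 3 each), and ATP6V1C2 made up 39.6% ± 1.76 of it in Dox and 0.827% ± 0.152 in Cont. Every Dox library had the higher share (two-sided exact permutation p = 0.1, the smallest that 3 libraries against 3 allow).

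Among promoters of the RefSeq table (GRCh38.p14, 250 bases before to 50 after the start), 41 of the 58 members were matched, with 54 promoters. The promoters of the member that rose most and of the TFEB family member that changed are shown in lower case, since they hold neither an E-box (CACGTG) nor a FOXO site (GTAAACA) on either strand. The ATP6V1C2 promoter is at chr2:10721380-10721679 (plus strand) and the TFE3 promoter at chrX:49043308-49043607 (minus strand), each written 5′ to 3′ along its gene.
ATP6V1C2 promoter: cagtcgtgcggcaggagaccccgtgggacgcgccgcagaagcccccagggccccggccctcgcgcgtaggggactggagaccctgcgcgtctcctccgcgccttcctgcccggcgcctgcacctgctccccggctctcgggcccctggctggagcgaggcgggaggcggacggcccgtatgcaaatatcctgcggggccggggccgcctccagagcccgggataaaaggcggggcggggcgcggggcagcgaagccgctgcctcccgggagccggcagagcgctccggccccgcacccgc
TFE3 promoter: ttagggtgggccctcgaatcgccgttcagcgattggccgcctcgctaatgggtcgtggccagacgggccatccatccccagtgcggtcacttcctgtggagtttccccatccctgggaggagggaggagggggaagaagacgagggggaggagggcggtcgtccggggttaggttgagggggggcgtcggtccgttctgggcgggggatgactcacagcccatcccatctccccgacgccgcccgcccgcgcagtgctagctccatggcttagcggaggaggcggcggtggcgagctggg
The absence of these letters from this window says nothing on whether the factors act on either gene.

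The V-ATPase genes as a whole had 20 tested members, of which 7 rose, 4 fell and 9 were not called, with a median change of 0.09. The called share was 55%, against 80.4% of all genes. The split was 12 higher and 2 lower in TPM and likewise under median-of-ratios scaling. It was 14 and 1 in mitochondria-free TPM, and 12 and 1 after quantile normalization. Leaving out the first Cont library or the second Dox library left 2 of the 4 lower calls. The plot of V-ATPase transcripts by library shows that most subunits lay close together in both groups. Among those that stood apart were the alternative forms ATP6V1C2, ATP6V0A2 and ATP6V0A4, and also ATP6V1A, the catalytic A subunit.

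**Figure D1:**
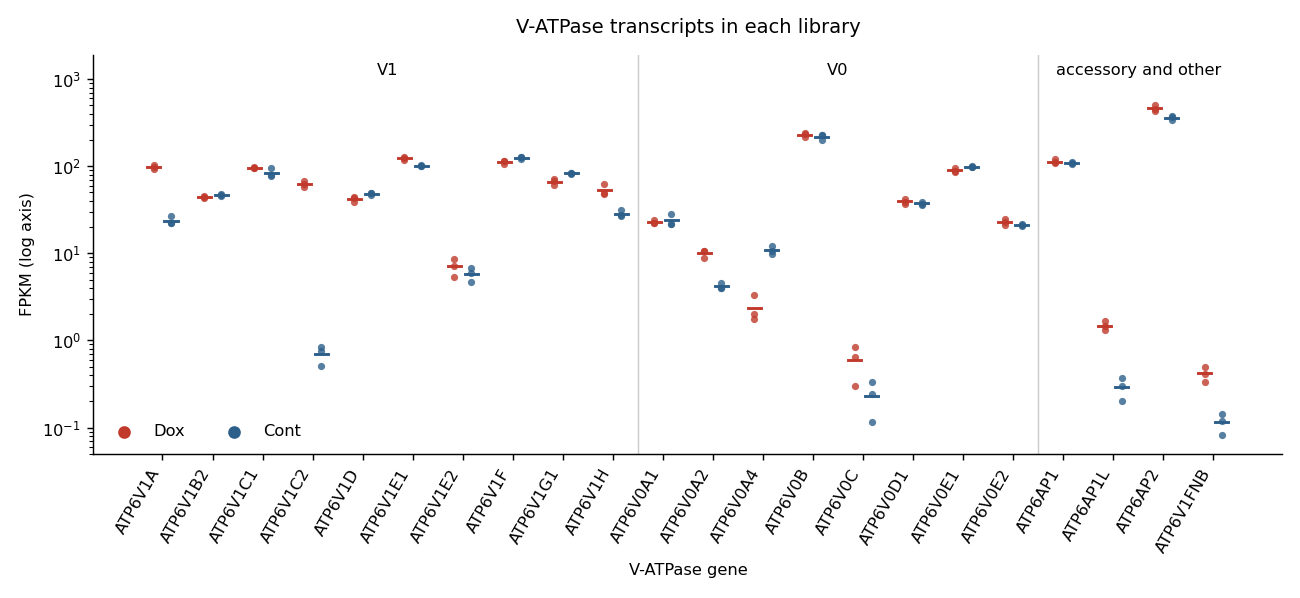
FPKM (log axis) of each V-ATPase gene in the 3 Dox libraries and the 3 Cont libraries, with each point 1 library. ATP6V1C2 had a mean of 62.8 FPKM in Dox and 0.706 FPKM in Cont, while the abundant ATP6V0B (229 FPKM in Dox and 217 FPKM in Cont) overlapped between groups.

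In the V1 head, ATP6V1A encodes the catalytic A subunit, which binds and hydrolyses ATP, and ATP6V1B2 the widely expressed B subunit that alternates with it in the ring. ATP6V1A had 93.9, 97.9 and 102 FPKM in Dox libraries, against 22.1, 22.03 and 26.9 FPKM in Cont libraries. Every Dox library stood above every Cont library, and the mean level was 4.14-fold that of Cont (log2 change 2.01, SE 0.09, adjusted p = 2.38e-08 by limma). ATP6V1B2 had 45.7, 43.5 and 44.6 FPKM in Dox libraries, against 48.0, 46.2 and 45.4 FPKM in Cont libraries. Its groups lay close together (log2 change -0.06, adjusted p = 0.404), and only in mitochondria-free TPM did it turn round to a call in the other direction (0.22, adjusted p = 0.00752). In the assembled pump A and B subunit proteins stand in equal number, and protein number is not measured by RNA. The ratio of ATP6V1A to ATP6V1B2 FPKM was 2.20 ± 0.125 in Dox and 0.510 ± 0.0728 in Cont (SD, n = 3 each, two-sided exact permutation p = 0.1, the smallest possible).

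The other V1 transcripts moved less. ATP6V1H, the regulatory H subunit that couples V1 to V0, had 47.9, 49.1 and 62.5 FPKM in Dox libraries, against 27.8, 26.9 and 31.2 FPKM in Cont libraries (log2 change 0.86, adjusted p = 3.82e-05 by limma). The groups did not overlap, and the third Dox library was the highest. ATP6V1E1, the common form of the stator subunit E, rose slightly (mean 123 ± 5.17 FPKM in Dox and 102 ± 1.54 FPKM in Cont, log2 change 0.27, adjusted p = 0.00253). Its rarer form ATP6V1E2 was not called (7.17, 5.33 and 8.70 FPKM in Dox, against 6.80, 5.93 and 4.65 FPKM in Cont), but it was called higher without the second Dox library (0.40, adjusted p = 0.0371). ATP6V1E2 made up 5.42% ± 1.22 of subunit E in Dox and 5.38% ± 0.917 in Cont (two-sided exact permutation p = 1.0, n = 3 each), and the shares of the E forms overlapped between the groups.

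Subunits D, F and G of the stalks were called slightly lower in Dox, calls that D and F lost in TPM, in mitochondria-free TPM, under median-of-ratios scaling and after quantile normalization. ATP6V1G1, a stator subunit, had 68.2, 61.1 and 70.7 FPKM in Dox libraries, against 84.2, 81.9 and 82.9 FPKM in Cont libraries (log2 change -0.31, adjusted p = 0.00236 by limma). Dox and Cont libraries did not overlap, but the call was lost in mitochondria-free TPM (-0.04, adjusted p = 0.628) and with quantile normalization (-0.09, adjusted p = 0.246), and 5 pseudogenes carry its name, so shared reads make its level uncertain. ATP6V1D, part of the rotating central shaft, fell by 0.20 (adjusted p = 0.0296); it lost the call without Cont 1, Cont 3, Dox 1 or Dox 2 (adjusted p = 0.0503 to 0.127) and turned to 0.08 in mitochondria-free TPM. Exons of EIF2S1, a translation initiation factor gene, overlap ATP6V1D on the opposite strand, and EIF2S1 had 16.1 ± 0.25 FPKM in Dox and 41.9 ± 2.09 FPKM in Cont (SD, n = 3 each); its part in the ATP6V1D value was not tested. ATP6V1F, also of the shaft, fell by 0.17 (adjusted p = 0.0276); it lost the call without Cont 1, Cont 2 or Dox 2 (adjusted p = 0.0553 to 0.121) and turned to 0.10 in mitochondria-free TPM and 0.07 with quantile normalization. In all, 4 of 10 tested V1 genes rose, 3 fell and 3 were not called (70% called, against 80.4% of all genes). Without Cont 1 or without Dox 2, 1 lower call was left. The V1 split was 5 higher and 1 lower in TPM and under median-of-ratios scaling, 7 and 0 in mitochondria-free TPM, and 5 and 0 with quantile normalization.

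In V0, subunit a exists in forms that direct the pump to different membranes: the a2 form is known from Golgi and endosomes, and the a4 form from acid-secreting cells of the kidney and inner ear. ATP6V0A2 had 10.6, 10.6 and 8.89 FPKM in Dox libraries, against 4.02, 4.05 and 4.52 FPKM in Cont libraries. No Dox library overlapped with Cont, and ATP6V0A2 rose 2.39-fold (log2 change 1.08, SE 0.10, adjusted p = 3.59e-06 by limma). ATP6V0A4 had 2.03, 1.77 and 3.35 FPKM in Dox libraries, against 10.6, 9.90 and 12.2 FPKM in Cont libraries. It moved the opposite way with no overlap (log2 change -1.84, SE 0.16, adjusted p = 3.16e-06), and the Cont mean was 4.57-fold that of Dox. ATP6V0A1, the most abundant form here, had 24.1, 22.4 and 22.2 FPKM in Dox libraries, against 21.9, 21.9 and 28.6 FPKM in Cont libraries, and was not called (log2 change -0.06, adjusted p = 0.599).

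The summed level of subunit a was 35.3 ± 1.30 FPKM in Dox and 39.2 ± 5.31 FPKM in Cont (SD, n = 3 each; two-sided exact permutation p = 0.3). Within that sum the a2 form made up 28.4% ± 2.35 in Dox and 10.8% ± 0.71 in Cont, and the a4 form 6.79% ± 2.56 in Dox and 27.8% ± 1.00 in Cont (exact permutation p = 0.1 for each, the smallest possible). The a1 form kept the largest share, 64.8% ± 0.639 in Dox and 61.4% ± 1.54 in Cont. FOXI1, the 1 marker of 5 for acid-secreting renal or epididymal cells that had a row, stood at 0.024 FPKM in Dox libraries and at 0.317 to 0.646 FPKM in Cont libraries. It did not pass the filter, its Dox values were identical, and both groups were near 0. Its part in the ATP6V0A4 change was not tested.

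**Figure D2:**
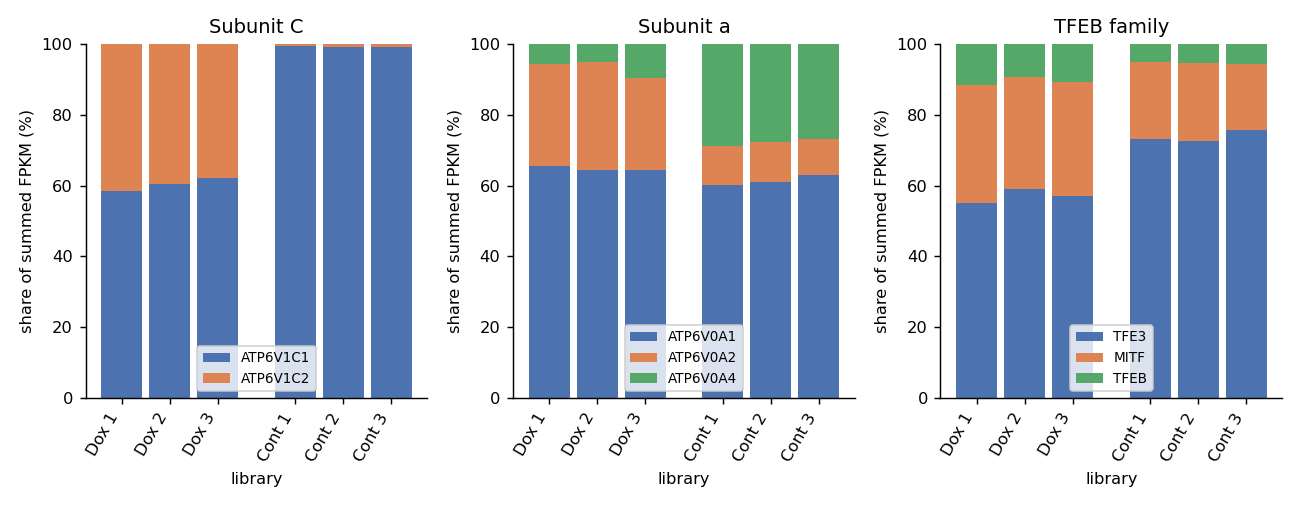
Share (%) of summed FPKM taken by each gene of a family, in each of the 3 Dox libraries and 3 Cont libraries, for subunit C, subunit a and the TFEB family. ATP6V1C2 took 39.6% of subunit C in Dox and 0.827% in Cont, and TFE3 took 57.1% of the TFEB family in Dox and 73.8% in Cont.

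The remaining V0 genes were not called. ATP6V0B (c″, part of the rotor ring) averaged 229 ± 13.3 FPKM in Dox and 217 ± 16.3 FPKM in Cont, and ATP6V0D1 (the d1 subunit, which joins the ring to the shaft) 39.4 ± 2.34 FPKM in Dox and 37.4 ± 1.57 FPKM in Cont. For subunit e, ATP6V0E1 averaged 89.9 ± 5.24 FPKM in Dox and 98.7 ± 1.45 FPKM in Cont, and ATP6V0E2 22.8 ± 1.78 FPKM in Dox and 21.2 ± 0.599 FPKM in Cont (SD, n = 3 each). ATP6V0E1 was called lower without the third Dox library (-0.18, adjusted p = 0.0196 by limma), which made 2 lower V0 calls in place of 1. Of 7 tested V0 genes 1 rose, 1 fell and 5 were not called (28.6% called, against 80.4% of all genes). In TPM, in mitochondria-free TPM, under median-of-ratios scaling and with quantile normalization, 4 were higher and 1 lower. ATP6V0C, the proton-carrying c subunit of the ring, did not pass the filter: it was listed at 0.303, 0.652 and 0.839 FPKM in Dox libraries, against 0.115, 0.337 and 0.240 FPKM in Cont libraries. Its gene shares exons with 2 same-strand genes of the annotation and has 4 like-named pseudogenes, so this low value is uncertain.

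Of the accessory genes, ATP6AP2, known as the prorenin receptor and needed for V-ATPase assembly, was the most abundant V-ATPase transcript, at 503, 448 and 429 FPKM in Dox libraries, against 364, 380 and 343 FPKM in Cont libraries. Dox and Cont ranges lay apart and the difference was small (log2 change 0.34, adjusted p = 0.00259 by limma). ATP6AP1, the Ac45 protein of the V0 sector, was not called (113 ± 6.05 FPKM in Dox and 109 ± 2.32 FPKM in Cont). ATP6AP1L, a gene named for its likeness to ATP6AP1, was 5.10-fold higher in Dox at low levels (1.66, 1.48 and 1.31 FPKM in Dox, against 0.304, 0.368 and 0.199 FPKM in Cont; log2 change 0.94, adjusted p = 4.21e-05). ATP6V1FNB, which the name pattern takes in and which is named as a neighbour of ATP6V1F, was not tested (0.418 ± 0.0817 FPKM in Dox and 0.115 ± 0.0296 FPKM in Cont).

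In the TFEB family 1 of 3 genes was called (33.3%, against 80.4% of all genes). TFE3, at chrX:49028726-49043486 on the minus strand (GENCODE 29, GRCh38), had 25.8, 26.2 and 26.8 FPKM in Dox libraries, against 59.8, 57.1 and 57.9 FPKM in Cont libraries. All Dox libraries stood below all Cont libraries with little spread, and the Cont mean was 2.22-fold that of Dox (log2 change -1.12, SE 0.06, adjusted p = 1.21e-07 by limma). TFEB, the member best known as a regulator of lysosome number, had 5.40, 4.09 and 4.98 FPKM in Dox libraries, against 4.14, 4.34 and 4.26 FPKM in Cont libraries. The second Dox library lay below all Cont libraries (log2 change 0.15, adjusted p = 0.229); TFEB was called higher in mitochondria-free TPM (0.41, adjusted p = 0.0101) and under median-of-ratios scaling (0.26, adjusted p = 0.0483). MITF, which also drives pigment genes in melanocytes, had 15.6, 14.1 and 15.2 FPKM in Dox libraries, against 17.7, 17.2 and 14.4 FPKM in Cont libraries (log2 change -0.13, adjusted p = 0.23). The third Cont library lay among the Dox values, and without it MITF was called lower (-0.21, adjusted p = 0.0327), making 2 lower calls of 3. PMEL, the 1 melanocyte marker of 6 that had a row, stood at 1.0 to 2.64 FPKM in Dox libraries and at 0.192 to 0.735 FPKM in Cont libraries, and its part in the MITF values was not tested.

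The family summed to 46.1 ± 1.43 FPKM in Dox and 79.0 ± 2.54 FPKM in Cont (SD, n = 3 each). TFE3 remained the most abundant of the 3 transcripts, with 57.1% ± 1.96 of the sum in Dox and 73.8% ± 1.58 in Cont. MITF took 32.5% ± 0.79 in Dox and 20.8% ± 1.71 in Cont, and TFEB 10.5% ± 1.18 in Dox and 5.38% ± 0.275 in Cont. Each share differed without overlap between the groups (two-sided exact permutation p = 0.1, the smallest possible). Where in the cell these proteins were, which is how mTORC1 controls them, is not measured by RNA.

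Among the 26 hydrolases 12 rose, 8 fell and 6 were not called, a called share of 76.9% against 80.4% of all genes. The median change was 0.15. In mitochondria-free TPM 17 were higher and 5 lower, and under median-of-ratios scaling 16 and 6. The summed FPKM of the hydrolases was 2205 ± 33.9 in Dox and 2003 ± 86.1 in Cont (SD, n = 3 each; two-sided exact permutation p = 0.1, the smallest possible). CTSB alone made up 45.2% ± 0.369 of it in Dox and 42.7% ± 1.38 in Cont.

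**Figure D3:**
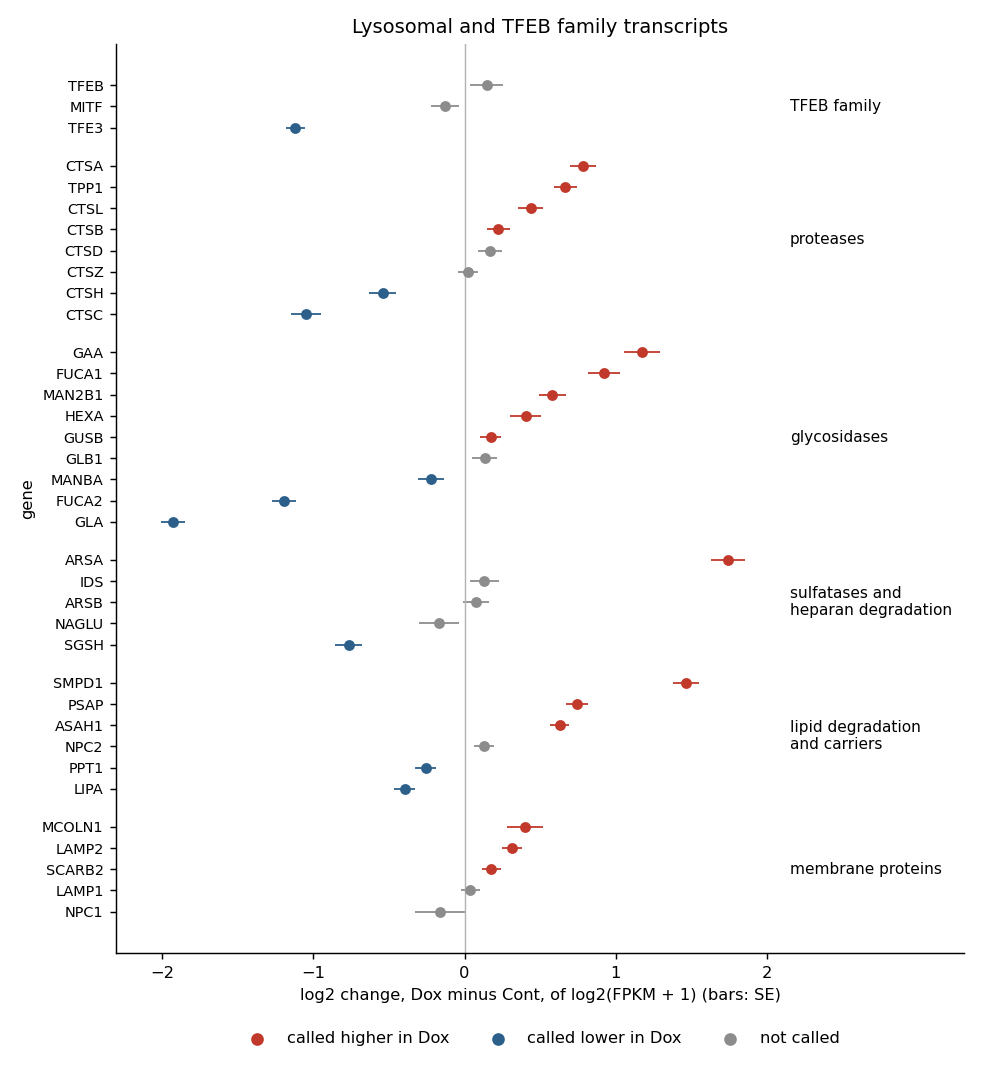
Log2 change (Dox minus Cont of log2(FPKM + 1)) with its SE for the lysosomal and TFEB family members, grouped by role and coloured by call (n = 3 libraries in each group). ARSA (1.74) lies farthest to the right and GLA (-1.93) farthest to the left; PPT1 (-0.26) and MANBA (-0.22) turn to 0.01 and 0.02 in mitochondria-free TPM.

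ARSA, arylsulfatase A, which removes sulfate from sulfatide and is lost in metachromatic leukodystrophy, had 42.9, 48.1 and 35.7 FPKM in Dox libraries, against 11.4, 13.2 and 10.98 FPKM in Cont libraries. The lowest Dox library was well above the highest Cont library, and the mean was 3.56-fold that of Cont (log2 change 1.74, SE 0.11, adjusted p = 3.4e-07 by limma). SMPD1, acid sphingomyelinase, which releases ceramide from sphingomyelin and is lost in Niemann-Pick disease types A and B, had 36.5, 40.4 and 40.5 FPKM in Dox libraries, against 14.8, 13.6 and 12.4 FPKM in Cont libraries. Again no library overlapped (2.88-fold, log2 change 1.46, SE 0.08, adjusted p = 1.44e-07). PSAP, the precursor of the saposins that present sphingolipids to their hydrolases, was the most abundant member in Dox and second to CTSB in Cont, at 1208, 1215 and 1139 FPKM in Dox libraries, against 719, 740 and 670 FPKM in Cont libraries. It rose by 0.74 (adjusted p = 5.53e-06), and ASAH1, acid ceramidase, by 0.63 (94.4 ± 3.67 FPKM in Dox and 60.7 ± 1.61 FPKM in Cont, adjusted p = 8.02e-06).

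GLA, alpha-galactosidase A, which removes galactose from globotriaosylceramide and is lost in Fabry disease, had the largest fall of the members. The gene lies at chrX:101397803-101408012 on the minus strand (GENCODE 29, GRCh38). It had 7.602, 7.83 and 7.79 FPKM in Dox libraries, against 29.9, 34.6 and 32.4 FPKM in Cont libraries. The Dox libraries were almost identical and far below Cont, whose mean was 4.17-fold that of Dox (log2 change -1.93, SE 0.08, adjusted p = 1.51e-08 by limma). GLA made up 0.351% ± 0.0103 of hydrolase FPKM in Dox and 1.61% ± 0.123 in Cont.

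Of the other lipid genes, LIPA, the acid lipase that splits cholesteryl esters and triglycerides, fell by 0.40 (36.5 ± 1.47 FPKM in Dox and 48.4 ± 1.92 FPKM in Cont, adjusted p = 0.000354 by limma) and lost the call in mitochondria-free TPM (-0.12, adjusted p = 0.146). PPT1, which removes palmitate from proteins, fell by 0.26 (adjusted p = 0.00573), but was not called in TPM (-0.15, adjusted p = 0.079), under median-of-ratios scaling (-0.13, adjusted p = 0.108) or with quantile normalization (-0.12, adjusted p = 0.126), and turned to 0.01 in mitochondria-free TPM. Exons of CAP1, a regulator of actin turnover, overlap PPT1 on the opposite strand, and CAP1 had 193 ± 8.28 FPKM in Dox and 414 ± 15.4 FPKM in Cont (SD, n = 3 each); its part in the PPT1 value was not tested. NPC2, the soluble carrier that passes cholesterol to NPC1, was not called (70.0 ± 3.83 FPKM in Dox and 63.9 ± 1.45 FPKM in Cont, log2 change 0.13, adjusted p = 0.1). Over the 6 lipid genes 3 rose, 2 fell and 1 was not called, a called share of 83.3% against 80.4% of all genes. In TPM, under median-of-ratios scaling and with quantile normalization 4 were higher and 1 lower, and in mitochondria-free TPM 4 and 0.

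**Figure D4:**
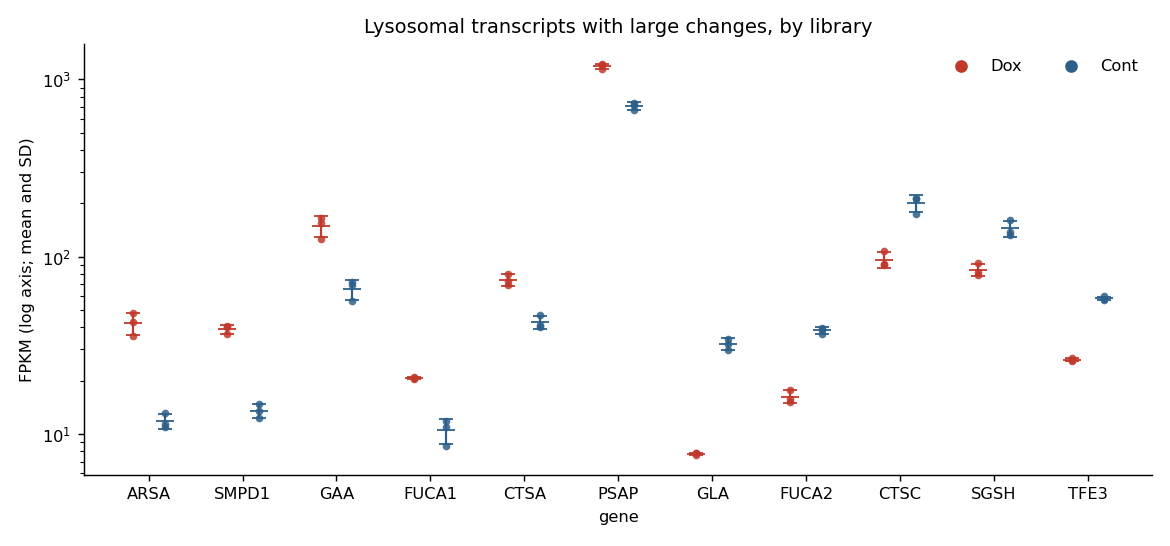
FPKM (log axis) in each of the 3 Dox libraries and 3 Cont libraries, with the mean and SD of each group, for the lysosomal genes with large changes and TFE3. ARSA, SMPD1 and GAA stand higher in Dox without overlap, and GLA, FUCA2, CTSC, SGSH and TFE3 stand lower.

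Among glycosidases 5 of 9 rose, 3 fell and 1 was not called, a called share of 88.9% against 80.4% of all genes. GAA, acid alpha-glucosidase, the enzyme that degrades lysosomal glycogen and is lost in Pompe disease, had 166, 155 and 126 FPKM in Dox libraries, against 71.7, 69.1 and 56.2 FPKM in Cont libraries. There was no overlap, although the third library was the lowest of each group (2.27-fold, log2 change 1.17, SE 0.12, adjusted p = 8.77e-06 by limma). The paired fucosidase genes moved in opposite directions: FUCA1, the lysosomal enzyme lost in fucosidosis, had 20.4, 20.9 and 20.6 FPKM in Dox libraries, against 11.9, 10.98 and 8.62 FPKM in Cont libraries (log2 change 0.92, adjusted p = 2.52e-05). FUCA2, a related fucosidase that is largely secreted, had 15.3, 15.8 and 17.8 FPKM in Dox libraries, against 38.9, 39.9 and 36.5 FPKM in Cont libraries (log2 change -1.19, SE 0.08, adjusted p = 4.19e-07). FUCA2 thus stood below FUCA1 in all Dox libraries and above it in all Cont libraries.

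MAN2B1, lysosomal alpha-mannosidase, rose by 0.58 (144 ± 12.1 FPKM in Dox and 95.7 ± 8.21 FPKM in Cont, adjusted p = 0.00014 by limma), and HEXA, the alpha subunit of the hexosaminidase that degrades GM2 ganglioside, by 0.40 (5.86 ± 0.733 FPKM in Dox and 4.17 ± 0.229 FPKM in Cont, adjusted p = 0.00484). GUSB, beta-glucuronidase, rose by 0.17 (adjusted p = 0.04) and lost its call without Cont 1, Cont 2, Cont 3, Dox 1 or Dox 2 (adjusted p = 0.0618 to 0.128); it has 12 like-named pseudogenes. MANBA, beta-mannosidase, fell by 0.22 (adjusted p = 0.0406), lost its call without Cont 1, Cont 2, Dox 2 or Dox 3 (adjusted p = 0.0682 to 0.131) and turned to 0.02 in mitochondria-free TPM. GLB1, beta-galactosidase, was not called (39.5 ± 3.26 FPKM in Dox and 35.8 ± 2.12 FPKM in Cont). Glycosidase FPKM summed to 419 ± 35.4 in Dox and 316 ± 20.04 in Cont (two-sided exact permutation p = 0.1, the smallest possible).

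Among proteases 4 of 8 rose, 2 fell and 2 were not called, a called share of 75% against 80.4% of all genes. CTSC, dipeptidyl peptidase I, which activates granule serine proteases in immune cells, had 90.1, 91.4 and 108 FPKM in Dox libraries, against 211, 215 and 175 FPKM in Cont libraries. The groups did not overlap, and the Cont mean was 2.08-fold that of Dox (log2 change -1.05, SE 0.10, adjusted p = 5.4e-06 by limma). CTSH, an aminopeptidase, fell by 0.54 (22.5 ± 1.05 FPKM in Dox and 33.3 ± 3.603 FPKM in Cont, adjusted p = 0.000285). CTSA, a carboxypeptidase that also protects beta-galactosidase and neuraminidase in a complex, had 69.2, 73.5 and 79.9 FPKM in Dox libraries, against 40.0, 41.1 and 47.2 FPKM in Cont libraries (log2 change 0.78, adjusted p = 1.38e-05). TPP1, a tripeptidyl peptidase lost in a childhood form of Batten disease, rose by 0.66 (25.1 ± 1.07 FPKM in Dox and 15.5 ± 0.974 FPKM in Cont, adjusted p = 2.15e-05).

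CTSL, CTSB, CTSD and CTSZ changed less than CTSC and CTSH did. CTSL, a cysteine endopeptidase, rose by 0.44 (56.1 ± 3.38 FPKM in Dox and 41.2 ± 3.56 FPKM in Cont, adjusted p = 0.00065 by limma). CTSB, the cysteine protease that was the most abundant hydrolase, had 1023, 990 and 980 FPKM in Dox libraries, against 891, 894 and 784 FPKM in Cont libraries. Its groups did not overlap (log2 change 0.22, adjusted p = 0.0203), and the call was lost without Dox 1 or without Dox 2 (adjusted p = 0.0581 to 0.0799). CTSD, the main aspartic protease, was not called (26.3 ± 0.974 FPKM in Dox and 23.4 ± 1.90 FPKM in Cont) and was called higher without the third Cont library (0.23, adjusted p = 0.0138). CTSZ, a carboxypeptidase, was not called either (142 ± 4.85 FPKM in Dox and 139 ± 6.39 FPKM in Cont). The protease sum was 1440 ± 18.3 FPKM in Dox and 1352 ± 83.7 FPKM in Cont.

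Beside ARSA, the enzymes of sulfate and heparan sulfate removal had 1 lower gene and 3 that were not called. With ARSA, the called share was 40%, against 80.4% of all genes. SGSH, the sulfamidase lost in Sanfilippo disease type A, had 78.6, 82.5 and 92.0 FPKM in Dox libraries, against 133, 139 and 162 FPKM in Cont libraries. Again the groups lay apart (log2 change -0.77, SE 0.09, adjusted p = 2.69e-05 by limma). Exons of SLC26A11, a sulfate transporter gene, overlap SGSH on the opposite strand. SLC26A11 had 103 ± 6.22 FPKM in Dox and 60.9 ± 6.61 FPKM in Cont, and its part in the SGSH value was not tested. ARSB, which desulfates dermatan sulfate, averaged 7.34 ± 0.258 FPKM in Dox and 6.92 ± 0.43 FPKM in Cont, and IDS, the iduronate sulfatase lost in Hunter disease, 6.20 ± 0.361 FPKM in Dox and 5.58 ± 0.445 FPKM in Cont. NAGLU, lost in Sanfilippo disease type B, had 7.20, 6.78 and 9.99 FPKM in Dox libraries, against 9.03, 8.39 and 9.59 FPKM in Cont libraries (log2 change -0.17, adjusted p = 0.251). Only the third Dox library reached above Cont, and without it NAGLU was called lower (-0.32, adjusted p = 0.0115), making 2 lower calls. The FPKM of these 5 genes summed to 148 ± 4.90 in Dox and 178 ± 15.01 in Cont (SD, n = 3 each, two-sided exact permutation p = 0.1, the smallest possible). This sum was lower in Dox, and the sums over proteases and glycosidases were higher. SGSH made up most of the sum of the 5 genes (mean 84.4 FPKM in Dox and 144 FPKM in Cont). ARSA went the other way (42.2 FPKM in Dox and 11.9 FPKM in Cont). CTSB likewise made up most of the protease sum (998 FPKM in Dox and 856 FPKM in Cont), so the sums do not describe each class as a whole. In mitochondria-free TPM 3 of the 5 were higher and 1 lower, and under median-of-ratios scaling 2 and 1.

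The membrane proteins moved little. LAMP1 and LAMP2 are the heavily glycosylated proteins that line the lysosomal membrane. LAMP1, the usual marker of lysosome amount, had 127, 124 and 136 FPKM in Dox libraries, against 123, 123 and 131 FPKM in Cont libraries, with overlap (log2 change 0.04, adjusted p = 0.593 by limma). LAMP2, also the receptor of chaperone-mediated autophagy, had 96.3, 101 and 92.1 FPKM in Dox libraries, against 76.1, 75.4 and 81.0 FPKM in Cont libraries, without overlap (log2 change 0.31, adjusted p = 0.00155). MCOLN1, the calcium channel TRPML1, rose by 0.40 (11.9 ± 1.63 FPKM in Dox and 8.75 ± 1.12 FPKM in Cont, adjusted p = 0.0102). Exons of PNPLA6 overlap MCOLN1 on the same strand. PNPLA6 had 20.8 ± 0.235 FPKM in Dox and 17.8 ± 1.05 FPKM in Cont, and its part in the MCOLN1 value was not tested. SCARB2, the receptor that carries glucocerebrosidase to lysosomes, rose by 0.18 (adjusted p = 0.0226) and lost the call without Cont 1, Cont 2, Dox 1 or Dox 2 (adjusted p = 0.0571 to 0.0745). NPC1, which exports cholesterol, had 169, 163 and 182 FPKM in Dox libraries, against 161, 166 and 263 FPKM in Cont libraries. The third Cont library stood apart, and the NPC1 change was -0.16 with it and 0.06 without it, not called in either case. RMC1, whose exons overlap NPC1 on the opposite strand, had 42.7 ± 0.752 FPKM in Dox and 11.9 ± 0.802 FPKM in Cont. The part of RMC1 in the NPC1 value was not tested.

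Promoter letters were then set beside the changes for the 41 members with a promoter in the RefSeq table. The E-box CACGTG, counted on both strands, was in 11 of 54 member promoters (20.4%), against 7.26% of all 35116 promoters and 9.25% of the 13790 promoters of genes tested. The longer form TCACGTGA, the core of the lysosomal CLEAR element, which contains CACGTG and so overlaps it, was in 6 of 54 (11.1%), against 0.98% of all promoters and 1.7% of those of genes tested. The FOXO site GTAAACA was in 1 of 54 (1.85%), against 3.42% and 2.55%. Since the CLEAR element was defined on lysosomal genes, these shares describe known promoters and carry no information on the cells studied.

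The windows that hold TCACGTGA, and the 1 window that holds GTAAACA, are shown because the genes that carry them did not share a direction. Each is 28 bases, 5′ to 3′ along its gene (GRCh38.p14), with the motif in capitals. The windows are at chr17:80101494-80101521 and chr17:80101539-80101566 (GAA, plus strand), chr20:45891299-45891326 (CTSA, plus), chr19:7522572-7522599 and chr19:7522599-7522626 (MCOLN1, plus), chr13:113297200-113297227 and chr13:113297227-113297254 (LAMP1, plus), chr16:67481200-67481227 (ATP6V0D1, minus), chr9:114587700-114587727 (ATP6V1G1, plus) and chr9:87725957-87725984 (CTSL, plus).
GAA, first site: ggaggccgcgTCACGTGAcccaccgcgg
GAA, second site: ctcccgccggTCACGTGAcccgcctctg
CTSA: gcgccggagtTCACGTGActcgtacaca
MCOLN1, first site: ccagaggcggTCACGTGAggggctctgg
MCOLN1, second site: ggctaccgggTCACGTGAccgaggcaca
LAMP1, first site: acccgcgggaTCACGTGAcgcccgggcg
LAMP1, second site: gcggcgcagcTCACGTGAcaagcgctgc
ATP6V0D1: ccccttatggTCACGTGAggcgcttgcg
ATP6V1G1: cgctgtgcggTCACGTGAcaacgggggc
CTSL, FOXO site: gggacagtcaGTAAACAagccacgaacc
GAA (1.17), CTSA (0.78) and MCOLN1 (0.40) rose, LAMP1 (0.04) and ATP6V0D1 (0.07) were not called, and ATP6V1G1 (-0.31) fell, a call that was lost in mitochondria-free TPM and with quantile normalization. By promoter, TCACGTGA was in 3 of 15 of members that rose, 1 of 14 of members that fell and 2 of 23 of members not called, and CACGTG in 3 of 15, 1 of 14 and 7 of 23.

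Genes of the pathway that are no members were counted from lists by role, beside a background of 80.4% of all genes called, 37.6% higher and 42.8% lower. The called share was 81.5% of other hydrolases, 78.6% of other membrane proteins, 83.3% of delivery genes, 91.7% of V-ATPase assembly factors and regulators, 87.5% of regulators of TFEB and TFE3, and 66.7% of HOPS and positioning genes, and all 5 Ragulator genes were called. Other hydrolases and their activators had 17 higher, 5 lower and 5 uncalled of 27 tested (median 0.61), among them a rise of the beta-galactosidase-like gene GLB1L (1.93) and of the cysteine protease CTSO (1.90). HYAL2, a hyaluronidase, fell by 0.84 (3.26 ± 0.223 FPKM in Dox and 6.64 ± 0.692 FPKM in Cont). Other membrane proteins and carriers had 17 higher, 5 lower and 6 uncalled of 28 (median 0.38). The cobalamin transporter ABCD4 (2.02) and the channel MCOLN3 (1.71) rose, and the peptide transporter ABCB9 (-1.39) and the tetraspanin CD63 (-1.04) fell. CD63 had 200 ± 5.6 FPKM in Dox and 414 ± 11.96 FPKM in Cont (SD, n = 3 each).

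Lists nearer to the pump and the TFEB family followed. Among assembly factors and regulators of the V-ATPase, 7 rose, 4 fell and 1 was not called of 12 (median 0.56). DMXL1, a subunit of the RAVE-like complex that rejoins V1 and V0, rose by 1.94 (370 ± 23.2 FPKM in Dox and 95.6 ± 2.21 FPKM in Cont, adjusted p = 6.45e-09 by limma), and the TLDc protein NCOA7, which binds V1, by 1.80. VMA21, the chaperone of V0 assembly in the endoplasmic reticulum, fell by 0.87 (145 ± 6.47 FPKM in Dox and 265 ± 2.67 FPKM in Cont), and MEAK7, also of the TLDc family, by 0.63. Among regulators of TFEB and TFE3, 10 rose, 4 fell and 2 were not called of 16 (median 0.31); 11 were higher and 1 lower in TPM, in mitochondria-free TPM and under median-of-ratios scaling, and the lower calls numbered 1 without the second Dox library. The kinase MAP4K3 (1.05) and the Rag GTPase RRAGB (0.93) rose, and the nuclear exporter XPO1 (-0.71) and the Rag GTPase RRAGD (-0.44) fell.

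The Ragulator complex, which anchors Rag GTPases on the lysosome, had 3 higher and 2 lower of 5: LAMTOR3 (1.18) and LAMTOR5 (0.45) rose, and LAMTOR1 (-0.54) and LAMTOR4 (-0.29) fell, with 1 lower call in mitochondria-free TPM, under median-of-ratios scaling and with quantile normalization. Genes that deliver hydrolases to lysosomes had 7 higher, 3 lower and 2 uncalled of 12 (median 0.30). SUMF1 (0.85), the enzyme that activates sulfatases such as ARSA, and its relative SUMF2 (0.95) rose. The adaptor GGA2 (-1.13) and the mannose 6-phosphate receptor M6PR (-0.95) fell, and M6PR had 99.8 ± 4.36 FPKM in Dox and 193 ± 9.80 FPKM in Cont. The HOPS tethering complex and lysosome positioning genes had 9 higher, 3 lower and 6 uncalled of 18 (median 0.24), and 13 higher and 0 lower in mitochondria-free TPM. BORCS7 (0.99) and VPS39 (0.68) rose, and SNAPIN (-0.52) and KXD1 (-0.34) fell.

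**Figure D5:**
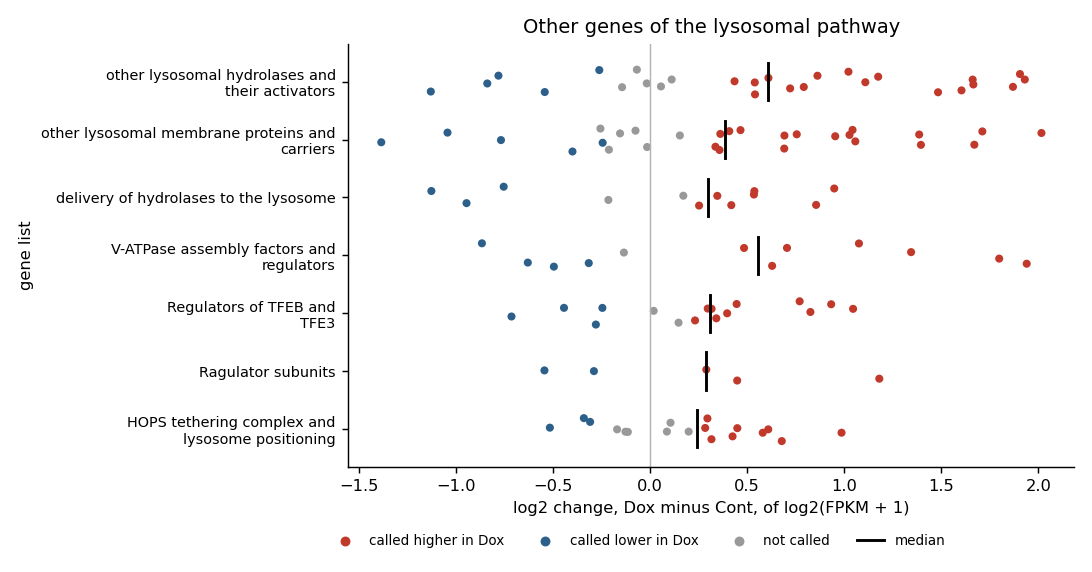
Log2 change (Dox minus Cont of log2(FPKM + 1)) of each tested gene in 7 lists of the lysosomal pathway, with the median of each list as a line (n = 3 libraries in each group). Every list holds genes on both sides of 0, with medians between 0.24 and 0.61; the lower HOPS genes lose their calls in mitochondria-free TPM.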

How the data were processed

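The authors deposited 1 table of log2 FPKM for 13117 genes in 6 libraries, named by symbol. FastQC 0.11.7 and the build GRCh38 are named per the submitters' processing notes. The aligner, counter, annotation, strand setting and gene filter are not given in the sources used here. The first Cont sample's description names the column of the second, so columns were matched by title. The deposited log2 values were turned back into FPKM. The lowest values rose in whole reads above an offset, estimated at 1.58 to 2.62 reads per library. This offset was not subtracted, so FPKM values near 0 include a floor.

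Changes were tested with limma 3.58.1 (R 4.3.3) on log2(FPKM + 1), with trended variance. P-values are two-sided and were adjusted by Benjamini-Hochberg over the 11526 genes that reached FPKM 1 in 3 or more libraries, and the threshold was 0.05. The log2(FPKM + 1) scale understates changes of low genes. The scripts were tested on simulated data. Shares of summed FPKM were compared by exact permutation. Depth was estimated from the steps between the lowest values of 307 genes and GENCODE 29 transcript lengths; only 40.1% of those with a length came within 2% of it, so read numbers are rough and cover counting error only.

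The members and all lists were chosen with earlier results of these data known. The genes named are the TFEB family, V-ATPase genes with alternative forms, the 4 largest rises and 4 largest falls of each role, every uncalled member, and up to 2 rises and 2 falls of each other list. Some genes that this rule or the marker lists take in are not reported here. Coordinates are from GENCODE 29 and promoters from RefSeq (GRCh38.p14). Exons of 29 of the 58 members overlap another annotated gene, 13 on the same strand and 23 on the opposite one, and 8 members have like-named pseudogenes, so how shared reads were counted could move their values. Alternatives changed the pseudocount, filter, scaling, moderation, replicate block, threshold or libraries.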

Additional observations from a re-analysis of the deposited data

How the results depend on the processing

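Scaling had the widest effect. Members called higher numbered 38 in mitochondria-free TPM and 35 with median-of-ratios scaling, in place of 23, and members called lower 7 in mitochondria-free TPM, in place of 13. The TFEB family had 2 calls in place of 1 with both scalings, and 1 to 2 when single libraries were left out, with 2 without Cont 3. The median member change of 0.1326 became 0.1442 with a pseudocount of 0.1, 0.1456 with 0.01, 0.1457 on the deposited log2 values, 0.1396 without a filter, 0.2459 in TPM, 0.4063 in mitochondria-free TPM, 0.2579 with median-of-ratios scaling and 0.2859 with quantile normalization, and ran from 0.1272 to 0.1418 when single libraries were left out. ATP6V1D (0.0762), ATP6V1F (0.104), MANBA (0.0169), PPT1 (0.0143) and ATP6V1B2 (0.217) turned round in mitochondria-free TPM, and ATP6V1F (0.0747) with quantile normalization. Of 1006 values of single genes under an alternative, 895 kept sign and side of the threshold, 16 were uncalled both ways with the other sign, 51 gained a call and 44 lost one, 6 of these with the other sign. The causes were not tested.

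Nothing in the labels says that same-numbered libraries are pairs, so the main fit had no replicate block. Deviations of same-numbered Dox and Cont libraries correlated at 0.0371, -0.00483 and 0.0793 across genes. With a replicate block 22 members were higher and 12 lower, and MANBA and GUSB lost their calls.

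Of the 56 members tested, 27 were called with the same sign in every alternative fit that tested them. For ATP6AP1L these were 17 of the 18 fits. With 3 libraries in each group, changes near 0.2 passed or missed the threshold with the choice of libraries. ATP6V0C levels rest on an estimated 14.2 or more reads in Dox libraries and 2.27 or more in Cont libraries.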
